A study of Saccharomyces cerevisiae with 12 samples.

Results

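The 10 genes described here encode proteins that fold newly made polypeptides in the endoplasmic reticulum of Saccharomyces cerevisiae, together with the transcription factor that raises their expression. They were chosen by name through the array's annotation and comprise KAR2, SCJ1, LHS1, JEM1, PDI1, EUG1, MPD1, ERO1, FPR2 and HAC1, out of 5656 genes with a probe set of their own. Earlier results of these data were known when they were chosen. All 10 passed the filter on dim genes, which left 5400 genes for testing. Their signals exceeded the floor of 12 units on every one of the 12 arrays, the lowest being 21.9 for JEM1. HAC1 had 5 probe sets and the other 9 genes had 1 each.

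The strain was CEN.PK113-7D, a prototrophic haploid of mating type a, without further genetic change in any group. Each array held polyA RNA from 1 anaerobic chemostat, a vessel in which the feed rate sets the growth rate, here a dilution rate of 0.03 per hour throughout. Synthetic medium was short of either carbon or nitrogen, and cultures stood at 12 °C or 30 °C, which gave 4 groups of 3 arrays from independently grown cultures. Slower growth in the cold, which accompanies most batch experiments, is therefore not part of the comparison, and the chemostats differ from a cold shock.

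Secretory and membrane proteins enter the endoplasmic reticulum unfolded. Kar2, the resident Hsp70 known as BiP in animals, binds them in cycles of ATP hydrolysis that J-domain partners start and nucleotide exchange factors reset, while oxidoreductases form and reshuffle disulfide bonds. When unfolded chains build up, the sensor Ire1 cuts HAC1 mRNA, the ligase Trl1 joins the exons, and the Hac1 protein made from the spliced mRNA switches on many of these genes in what is called the unfolded protein response.

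Signals are linear array units as deposited. Their mean after trimming 2% from each end was close to 150.1 on every array, so arrays share a common level and the amount of mRNA per cell cannot be compared. The median signal per array was 41.2 to 51.4, and 22.2% to 26.7% of probe sets lay under the floor. Arrays correlated at 0.952 to 0.986 within groups and at 0.864 to 0.972 between them, over genes, which are not independent replicates. For ACT1 the 3′ probe set divided by the 5′ one, a sign of RNA quality, gave 1.53 ± 0.380 and 1.55 ± 0.224 at 12 °C for carbon and nitrogen limitation, against 1.82 ± 0.109 and 1.82 ± 0.112 at 30 °C (SD, n = 3). The added control transcripts averaged 519 ± 68.8 units in the cold and 317 ± 33.4 in the warm carbon-limited group, and 531 ± 205 and 521 ± 46.4 in the nitrogen-limited groups (SD, n = 3). Their part in the results was not tested.

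**Figure D1:**
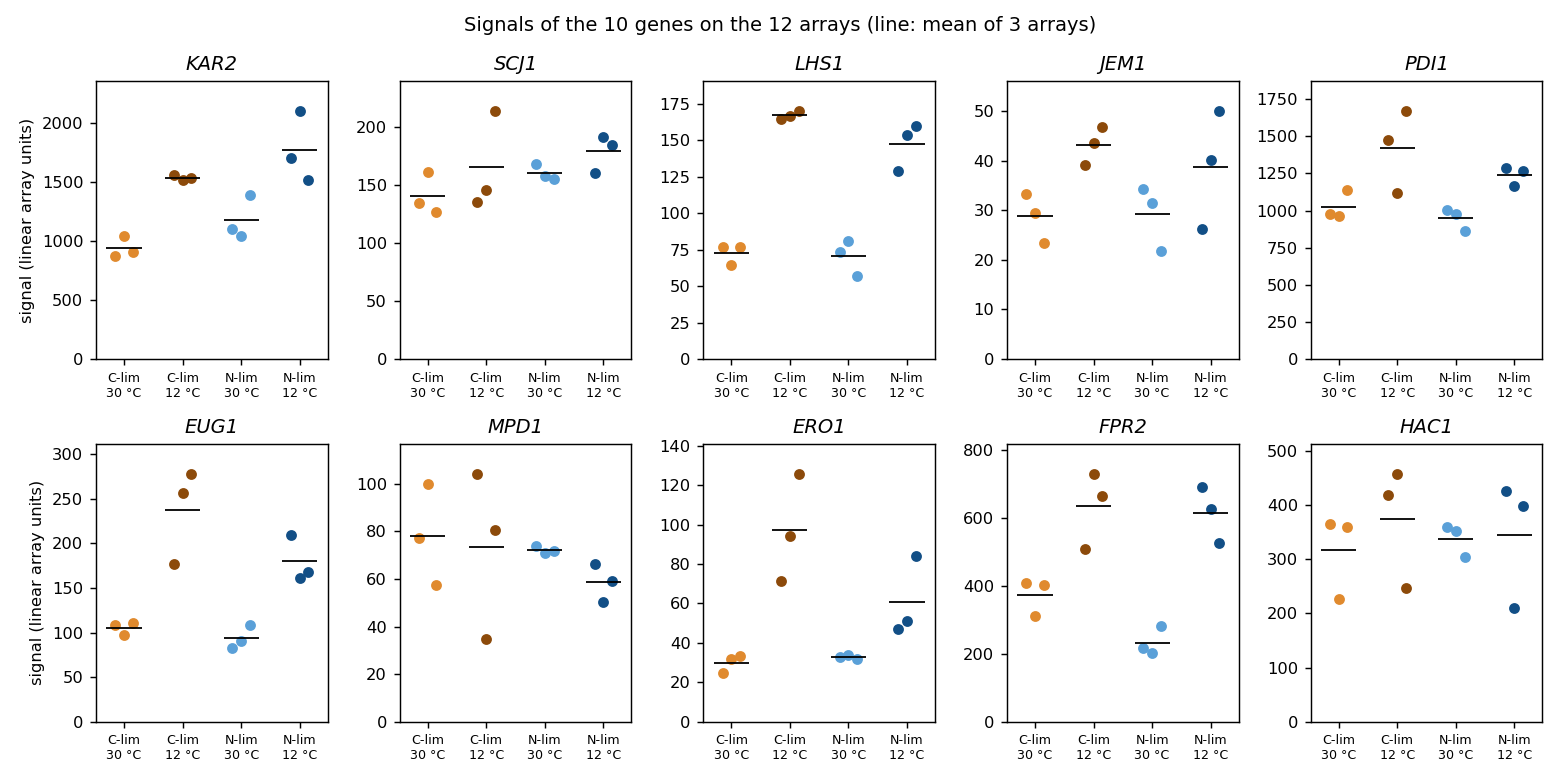
Signal in linear array units of each of the 10 genes on all 12 arrays, with 1 point per array, a line at the mean of 3 arrays and each vertical axis starting at 0. KAR2, LHS1, EUG1, ERO1 and FPR2 lie higher on all 12 °C arrays (dark) than on all 30 °C arrays (light) of the same limitation.

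KAR2, LHS1, EUG1, ERO1 and FPR2 were higher at 12 °C than at 30 °C under both limitations. PDI1 was also called under carbon limitation, narrowly. Of the 10 genes 6 rose with carbon limiting, 4 missed the threshold and none fell (limma, Benjamini-Hochberg adjusted p under 0.05 over 5400 genes), where 13.1% of all genes tested rose and 25.7% changed. With nitrogen limiting 5 rose, 5 missed it and none fell, where 15.9% of all genes rose and 38.2% changed. The 5 that rose under both stand against 7.06% of all genes. Because the 10 genes were chosen with earlier results of these data known, these shares are a description and not a test of the set. For 6 genes all 12 °C arrays lay above all 30 °C arrays under carbon limitation (23.3% of all genes), and likewise for 6 under nitrogen limitation (20.3%). The median change of the 10 genes was 0.65 on the log2 scale under carbon limitation and 0.49 under nitrogen limitation, and the medians of all genes were 0.03 and -0.10. Quantile normalization and median scaling moved the median of all genes under nitrogen limitation to 0.02 and 0.10. The split of all genes into higher and lower calls there was 857 to 1206, against 1073 to 931 after quantile normalization and 1309 to 807 after median scaling, and each of the 5 genes kept its call.

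KAR2 (YJL034W), the Hsp70 chaperone of the compartment, gave signals of 1555, 1512 and 1528 in carbon-limited cultures at 12 °C and of 875, 1038 and 902 at 30 °C. The cold arrays were nearly equal and lay above every warm one. The rise was 1.64-fold (log2 0.71 ± 0.16 SE, limma adjusted p = 0.00349). In nitrogen-limited cultures the signals were 1699, 2099 and 1512 at 12 °C and 1103, 1038 and 1384 at 30 °C. The spread was wider here, but the lowest cold array still exceeded the highest warm one. The rise was 1.50-fold (0.59 ± 0.16 SE, adjusted p = 0.00777). The order of group means was carbon limitation at 30 °C, nitrogen limitation at 30 °C, carbon limitation at 12 °C and nitrogen limitation at 12 °C, and neighbours in that order overlapped except across the step from 30 °C to 12 °C.

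LHS1 (YKL073W) encodes a large Hsp70-related protein of the endoplasmic reticulum that acts as a nucleotide exchange factor for Kar2. Its signals under carbon limitation were 164, 166 and 170 at 12 °C and 76.7, 64.3 and 76.9 at 30 °C. The 3 cold arrays differed among themselves far less than they differed from the warm ones. The rise was 2.31-fold (log2 1.20 ± 0.19 SE, limma adjusted p = 0.000274), the 135th largest among the 5400 genes tested. Under nitrogen limitation the signals were 129, 153 and 159 at 12 °C and 73.6, 81.1 and 57.1 at 30 °C, again without overlap. The rise there was 2.10-fold (1.07 ± 0.19 SE, adjusted p = 0.000486). SIL1, which encodes the other nucleotide exchange factor of Kar2, rose by 0.88 under carbon limitation (adjusted p = 0.00234) and had a change of 0.46 under nitrogen limitation that did not pass (adjusted p = 0.0578).

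SCJ1 and JEM1, which encode J-domain partners of Kar2, did not pass the test. SCJ1 (YMR214W), a soluble J protein of the compartment's interior, read 135, 146 and 214 at 12 °C and 134, 161 and 126 at 30 °C under carbon limitation. The groups overlapped and the upper cold value came from 1 array. Its changes were 0.21 ± 0.20 SE (95% interval -0.21 to 0.62) under carbon limitation and 0.16 ± 0.20 under nitrogen limitation (interval -0.26 to 0.57), so a rise as large as that of LHS1 lay outside both intervals. JEM1 (YJL073W), a J protein of the membrane also needed for nuclear fusion in mating, read 39.1, 43.7 and 46.8 at 12 °C and 33.4, 29.5 and 23.5 at 30 °C under carbon limitation, without overlap, and 26.2, 40.2 and 50.1 against 34.4, 31.4 and 21.9 under nitrogen limitation, with overlap. Its changes of 0.60 ± 0.25 SE and 0.39 ± 0.25 SE had limma adjusted p = 0.0951 and 0.242. Without replicate 1 of nitrogen limitation at 12 °C, its low cold array, the nitrogen change was 0.64 and passed (adjusted p = 0.045). The carbon change stayed at 0.60 and also passed (0.046), since that array enters it only through the shared estimate of the spread. With quantile normalization both passed too (0.0466 under carbon and 0.0439 under nitrogen limitation).

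ERO1 (YML130C) had the largest temperature change of the 10 genes under carbon limitation. It encodes the oxidase that supplies oxidizing equivalents to protein disulfide isomerase, with molecular oxygen as its usual electron acceptor in aerated cells, whereas the present cultures were anaerobic. The carbon-limited signals were 71.5, 94.0 and 125.9 at 12 °C and 24.6, 31.8 and 33.5 at 30 °C. The cold arrays spread widely, yet the lowest of them was above all warm arrays. The rise was 3.18-fold (log2 1.67 ± 0.26 SE, limma adjusted p = 0.000213), the 37th largest of 5400. With a floor of 50, above all of its 30 °C signals, the change was 0.92 and still passed (adjusted p = 0.00294).

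Under nitrogen limitation ERO1 read 47.2, 51.3 and 84.1 at 12 °C and 32.8, 34.0 and 32.0 at 30 °C. The groups again did not overlap, with 1 cold array well above its fellows. The rise was 1.79-fold (0.84 ± 0.26 SE, adjusted p = 0.0181). This call depended on single arrays: without replicate 3 at 12 °C the change was 0.58 (adjusted p = 0.0876), and without replicate 1 or 3 at 30 °C the adjusted p was 0.0515 or 0.0533. With the floor of 50 the change was 0.26 (adjusted p = 0.311).

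PDI1 (YCL043C) encodes the essential protein disulfide isomerase. Its signals were 1473, 1115 and 1672 at 12 °C and 976, 964 and 1141 at 30 °C under carbon limitation. Replicate 2 at 12 °C fell below the highest warm array, so the groups overlapped. The rise of 1.37-fold (log2 0.45 ± 0.16 SE) just passed, with a limma adjusted p of 0.0469, and was lost in 13 of 22 alternatives, among them leaving out any 1 of the 3 arrays at 30 °C or replicate 1 or 3 at 12 °C, where the change was 0.32 to 0.53. Under nitrogen limitation the signals were 1284, 1167 and 1265 against 1007, 975 and 861, without overlap, and the change of 0.39 ± 0.16 SE had an adjusted p of 0.0641. It passed with median scaling (adjusted p = 0.0103) and in a fit of the compared groups alone (0.0488). It also passed without replicate 2 or 3 of carbon limitation at 12 °C (0.0348 and 0.047), arrays of the other limitation that enter only through the shared estimate of the spread.

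EUG1 (YDR518W), a non-essential relative of PDI1, read 177, 256 and 278 at 12 °C and 108, 97.0 and 111 at 30 °C under carbon limitation. All cold arrays lay above all warm ones. The rise was 2.22-fold (log2 1.15 ± 0.20 SE, limma adjusted p = 0.000693). Under nitrogen limitation it read 210, 162 and 169 at 12 °C and 83.0, 90.6 and 108 at 30 °C, also apart, a rise of 1.92-fold (0.94 ± 0.20 SE, adjusted p = 0.00212). MPD1 (YOR288C), another member of the disulfide isomerase family, did not follow. It read 104, 34.8 and 80.6 at 12 °C and 77.1, 99.9 and 57.4 at 30 °C under carbon limitation, where replicate 2 at 12 °C was the lowest of all 12 arrays. Its changes were -0.20 ± 0.32 SE and -0.31 ± 0.32 SE (adjusted p = 0.695 and 0.473). Under nitrogen limitation its 12 °C arrays, at 66.4, 50.5 and 59.1, all lay below the 30 °C arrays, at 73.7, 71.0 and 71.9. In that direction 28.5% of all genes tested were apart in this comparison.

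FPR2 (YDR519W), a peptidyl-prolyl isomerase that binds the drug FK506, had the largest temperature change of the 10 genes under nitrogen limitation. The signals were 692, 627 and 527 at 12 °C and 216, 202 and 281 at 30 °C. The groups were far apart. The rise was 2.65-fold (log2 1.41 ± 0.19 SE, limma adjusted p = 3.93e-05), the 127th largest of 5400. Under carbon limitation the signals were 510, 731 and 665 against 409, 311 and 403, also without overlap, and the rise was 1.69-fold (0.76 ± 0.19 SE, adjusted p = 0.0084). FPR2 and EUG1 are neighbours on their chromosome in the R64 gene table, and both rose under both limitations.

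**Figure D2:**
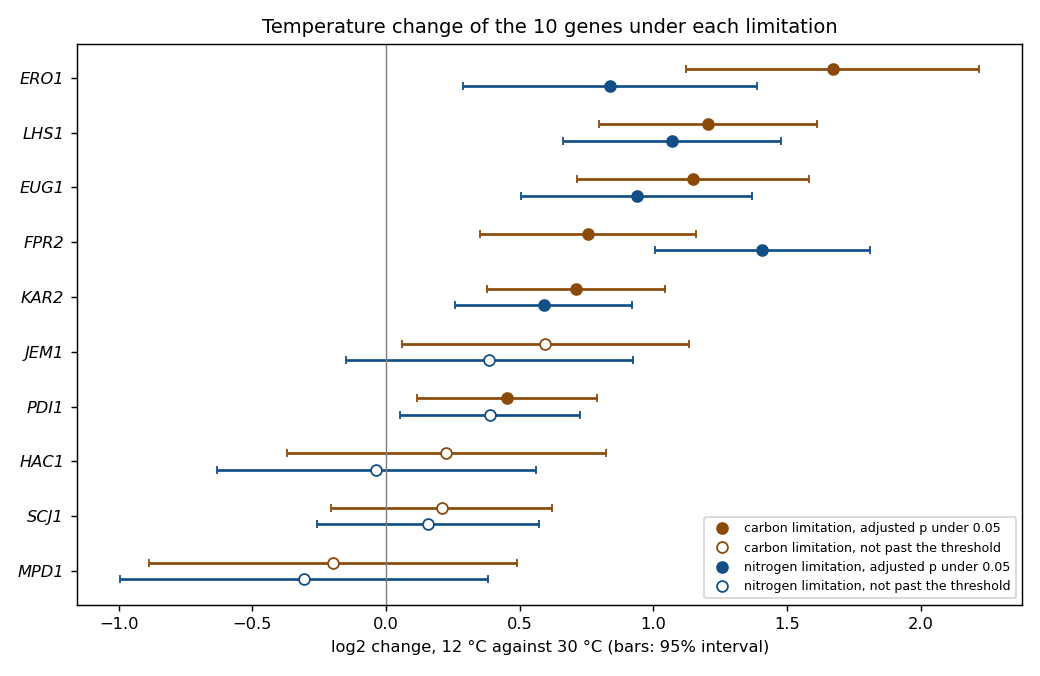
Log2 change from 30 °C to 12 °C of each of the 10 genes under carbon limitation (brown) and nitrogen limitation (blue), with bars for the 95% interval from limma and filled points for adjusted p under 0.05. ERO1, LHS1, EUG1, FPR2 and KAR2 are filled under both limitations, PDI1 under carbon limitation, and the intervals of HAC1, SCJ1 and MPD1 cross 0 under both.

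HAC1 (YFL031W), which encodes the transcription factor of the unfolded protein response, did not pass in either comparison. On the probe set with the highest signal it read 419, 458 and 247 at 12 °C and 365, 226 and 359 at 30 °C under carbon limitation. Under nitrogen limitation it read 426, 209 and 399 against 359, 352 and 304. In each cold group 1 array lay far below the other 2, and all groups overlapped. The changes were 0.23 ± 0.28 SE (95% interval -0.37 to 0.82, limma adjusted p = 0.595) and -0.04 ± 0.28 SE (-0.63 to 0.56, adjusted p = 0.931). These intervals include changes as large as that of KAR2 under carbon limitation but not under nitrogen limitation. Of the other 4 probe sets, 1 stayed between 0.1 and 5.7 units, under the floor, and was not tested. The other 3 had changes of 0.04, 0.92 and 0.23 under carbon limitation and -0.06, -0.04 and 0.27 under nitrogen limitation, in a fit over all probe sets, and none passed (adjusted p from 0.126 to 0.954). The largest of these, 0.92 ± 0.42 SE, came from a probe set whose suffix (_f_at) marks similarity to other sequences, so its source is uncertain. The probe set with the highest signal (_i_at) and that with changes of 0.23 and 0.27 (_s_at) also lack the plain suffix, so caution applies to them too. Of those tested, only the probe set with changes of 0.04 and -0.06 has the plain suffix. The annotation does not say whether a probe set reads the intron, so the spliced and unspliced forms of HAC1 mRNA cannot be told apart.

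**Figure D3:**
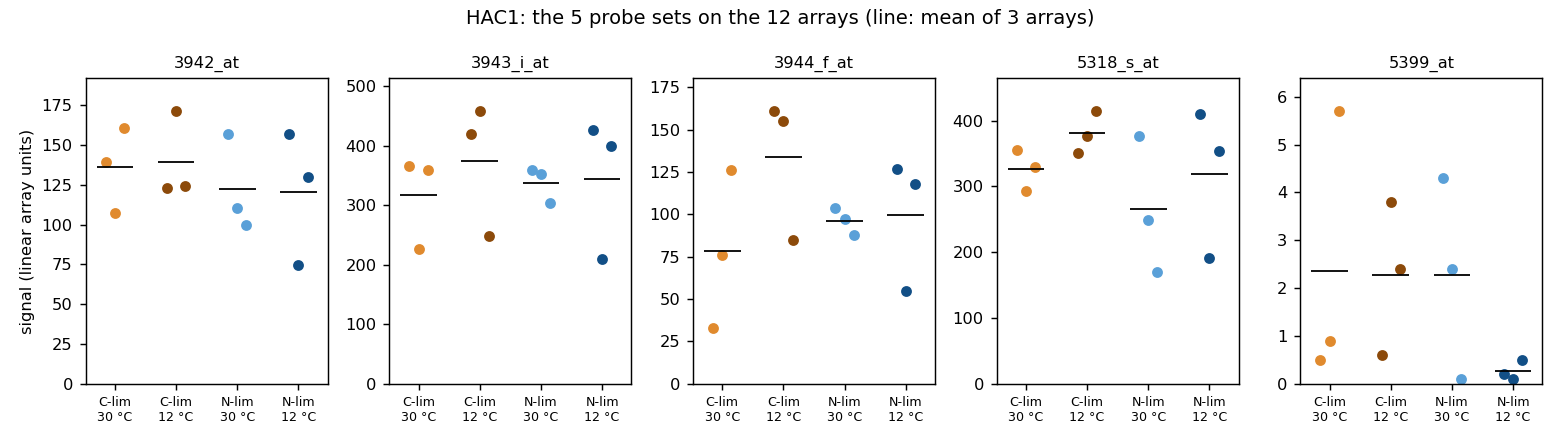
Signal in linear array units of the 5 probe sets of HAC1 on the 12 arrays, named by their platform identifiers, with 1 point per array and a line at the mean of 3 arrays. The 12 °C (dark) and 30 °C (light) arrays of a limitation overlap on each of the 4 probe sets that lie above the floor.

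Of 5 genes for signalling in the unfolded protein response, 1 rose and 1 fell under carbon limitation (median 0.33), and 2 fell under nitrogen limitation (median -0.33). Of all genes tested 13.1% rose and 12.6% fell under carbon limitation, and 22.3% fell under nitrogen limitation. IRE1, the sensor that cuts HAC1 mRNA, fell by 1.13 under nitrogen limitation (limma adjusted p = 0.00111) and had a change of -0.54 under carbon limitation (adjusted p = 0.0887). TRL1, the ligase that joins the HAC1 exons, rose by 0.73 under carbon limitation (adjusted p = 0.0064) and had a change of 0.11 under nitrogen limitation (adjusted p = 0.641). At a floor of 50 both IRE1 and TRL1 were too dim to be tested, and their calls held in the other 21 alternatives. GCN4, a transcription factor that also acts on unfolded protein response genes, fell by 0.55 under carbon limitation (adjusted p = 0.0167) and did not pass under nitrogen limitation. The kinase gene GCN2 fell by 0.72 under nitrogen limitation (adjusted p = 0.0299). Under carbon limitation its change was positive and did not pass. The calls of GCN4 and GCN2 were lost in 4 of 22 and 5 of 21 alternatives, and leaving out 1 array was enough for each (carbon limitation at 12 °C replicate 3 or at 30 °C replicate 1 or 3 for GCN4, nitrogen limitation at 12 °C or 30 °C replicate 1 for GCN2).

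The size of the temperature change was then compared between limitations by an interaction term. None of the 10 genes passed (limma, 7.44% of all genes did), and 2 of them had an unadjusted p under 0.05. ERO1 rose less under nitrogen than under carbon limitation, with a difference of -0.83 ± 0.37 SE (95% interval -1.61 to -0.06, adjusted p = 0.184). FPR2 went the other way, with a difference of 0.65 ± 0.27 SE (0.08 to 1.22, adjusted p = 0.159). For KAR2 the difference was -0.12 ± 0.22 SE (-0.59 to 0.35) and for LHS1 -0.14 ± 0.27 SE (-0.71 to 0.44).

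Nitrogen limitation was also set against carbon limitation at each temperature. These comparisons use the same arrays as the temperature comparisons, so their values are not independent of those above. At 30 °C 1 of the 10 genes was called, against 26.9% of all genes, and it was lower, against 12.6%. FPR2 was lower under nitrogen limitation by 1.61-fold (log2 -0.69 ± 0.19 SE, limma adjusted p = 0.0139), without overlap between the groups, as for 24% of all genes in that direction. That call was lost without replicate 1 or 3 of carbon limitation or replicate 1 or 2 of nitrogen limitation at 30 °C (adjusted p = 0.0611, 0.0579, 0.0536 and 0.0687). KAR2 was higher under nitrogen limitation by 0.32 ± 0.16 SE (adjusted p = 0.145), and passed with quantile normalization alone (0.39, adjusted p = 0.0332).

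At 12 °C none of the 10 genes was called by limma and 1 had an unadjusted p under 0.05, where 5.67% of all genes were called. That gene was ERO1, with a change of -0.68 ± 0.26 SE (adjusted p = 0.129), which passed without replicate 3 of nitrogen limitation at 12 °C (-0.94, adjusted p = 0.0388). FPR2, which differed at 30 °C, had a change of -0.04 ± 0.19 SE here (95% interval -0.44 to 0.37).

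The arrays that were high or low within a group differed between genes. In carbon-limited cultures at 12 °C, replicate 1 was the lowest array for 6 of the 10 genes and replicate 3 the highest for 6. KAR2 was an exception there, with its highest value in replicate 1. In nitrogen-limited cultures at 12 °C, replicate 1 was lowest for 4 genes and highest for 5. Across the 12 arrays the correlation of log2 signal with the mean of the other 9 genes, each centred on its own mean, was 0.949 for LHS1, 0.913 for EUG1, 0.905 for ERO1, 0.853 for PDI1, 0.771 for FPR2 and 0.685 for KAR2. It was 0.678 for JEM1, 0.395 for SCJ1, 0.0217 for HAC1 and -0.334 for MPD1. The arrays fall into 4 groups, so these values mostly reflect how alike the genes differ between groups and are given as a description.

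Related genes were followed in 7 lists, those of the secretory pathway and, for comparison, cytosolic chaperones. Each list's counts stand against 13.1% of all genes higher and 12.6% lower under carbon limitation, and 15.9% higher and 22.3% lower under nitrogen limitation. Of 14 measured further chaperones and oxidoreductases of the endoplasmic reticulum 2 rose and 12 did not pass under carbon limitation (median 0.29), and 3 rose, 2 fell and 9 did not pass under nitrogen limitation (median 0.38). The rises under carbon limitation were near the share of all genes and are no result about the list. SHR3, a packaging chaperone of amino acid permeases, rose by 0.59 and 0.89 (limma adjusted p = 0.0474 and 0.00331), the first of which was lost in 15 of 22 alternatives. CHS7, which helps chitin synthase leave the endoplasmic reticulum, rose by 0.83 under nitrogen limitation (adjusted p = 0.00499), as did ROT1 by 0.51 (0.0311). EMC2 of the membrane insertion complex fell by 0.64 (0.0444, lost in 14 of 21 alternatives), and MPD2, a relative of PDI1, fell by 0.57 (0.0313). CNE1, the yeast calnexin, had changes of 0.24 and -0.23 that did not pass (adjusted p = 0.551 and 0.528). The number that rose ranged from 1 to 3 under carbon limitation and moved by over 1.5 times in 14 of 22 alternatives, among them leaving out any 1 array except replicate 3 of carbon limitation at 12 °C and replicates 1 and 3 of nitrogen limitation at 12 °C. Under nitrogen limitation the rises ranged from 2 to 7, moved by quantile normalization, median scaling, no filter on dim genes or leaving out replicate 2 at 12 °C. The falls there ranged from 0 to 4 and moved as far in 14 alternatives, among them leaving out any 1 array of carbon limitation at 30 °C or nitrogen limitation at 12 °C, or replicate 1 or 2 of nitrogen limitation at 30 °C. ROT1, MPD2 and CNE1 were singled out after their values were seen.

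Of 21 measured genes for translocation into the endoplasmic reticulum, 5 rose and 16 did not pass under carbon limitation (median 0.41). Under nitrogen limitation 5 rose, 1 fell and 15 did not pass (median 0.42). SEC66, a subunit of the Sec63 complex, rose by 1.00 and 1.18 (limma adjusted p = 0.0062 and 0.00131), and a subunit of the signal recognition particle receptor by 1.06 and 0.92 (0.00331 and 0.00544). SRP21 rose by 0.93 under carbon limitation (0.00688) and had a change of 0.36 under nitrogen limitation (0.219). SEC11, the catalytic subunit of signal peptidase, rose by 0.83 under nitrogen limitation (0.00233) but had -0.16 under carbon limitation (0.552). For SEC11 the interaction term passed (0.995, adjusted p = 0.028). The gene that fell was SRP72, by 0.75 (0.0057), named after its value was seen. SEC61, the channel, had changes of 0.47 and 0.40 that did not pass (0.063 and 0.0848), and SEC63, a membrane J protein that works with Kar2 at the channel, had 0.47 (0.189) and rose by 0.80 (0.0218), both also chosen after their values were seen. The number that rose ranged from 3 to 9 under carbon limitation, outside 1.5 times the 5 without replicate 2 at 12 °C or replicate 2 at 30 °C, and under nitrogen limitation from 4 to 14, highest with quantile normalization and median scaling.

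N-linked glycans are added to chains as they enter the compartment. Of 27 measured genes for adding and trimming them, 10 rose and 17 did not pass under each limitation, with medians of 0.45 and 0.37. ALG5, which makes the glucose donor, rose by 1.15 and 0.59 (limma adjusted p = 0.000242 and 0.0171). The oligosaccharyltransferase subunits SWP1 and OST1 rose by 0.87 and 0.78 under carbon limitation (0.000601 and 0.000728) and by 0.74 and 0.80 under nitrogen limitation (0.00138 and 0.000403), and OST2, a further subunit, by 0.67 and 1.00 (0.0273 and 0.00149). ALG12, a mannosyltransferase, and ALG13, of the second sugar transfer, rose by 1.34 and 0.96 under nitrogen limitation (0.0012 and 0.00572). Under carbon limitation leaving out replicate 3 at 12 °C or replicate 1 or 2 at 30 °C lowered the number of genes that rose, to 5 at the least. The call of OST2 under carbon limitation was lost without any 1 array of that comparison but replicate 3 at 12 °C, and that of ALG5 under nitrogen limitation without replicate 2 at 12 °C or replicate 1 at 30 °C.

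Of 15 measured genes of endoplasmic reticulum associated degradation, which removes proteins that fail to fold, 2 rose, 2 fell and 11 did not pass under carbon limitation (median -0.04). Under nitrogen limitation 1 rose, 3 fell and 11 did not pass (median -0.16). Rises and falls under carbon limitation and falls under nitrogen limitation were near the shares of all genes (13.1%, 12.6% and 22.3%), and are no result about the list. UBX2, which brings the ATPase Cdc48 to the membrane, fell by 0.72 and 0.91 (limma adjusted p = 0.0262 and 0.00486). The ubiquitin ligase HRD1 fell by 0.61 under carbon limitation (0.0303), and its partner HRD3 by 0.65 and the Cdc48 cofactor NPL4 by 0.87 under nitrogen limitation (0.0252 and 0.00674). DFM1, a derlin, rose by 0.55 and 0.54 (0.0206 and 0.0158), and UBC7, a ubiquitin-conjugating enzyme named after its value was seen, by 0.54 under carbon limitation (0.0215). UBX2 and HRD1 each lost the call under carbon limitation in 5 alternatives, HRD3 under nitrogen limitation in 7, and DFM1 in 3 and 2. The count of falls under carbon limitation went to 0 or 1 without any 1 array of that comparison, and the counts of rises ranged from 0 to 3 over the alternatives.

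Of 26 genes for vesicle transport between the endoplasmic reticulum and the Golgi, 4 rose, 2 fell and 20 did not pass under carbon limitation (median 0.19). Under nitrogen limitation 7 rose, 2 fell and 17 did not pass (median 0.27). The rises under carbon limitation were near the share of all genes (13.1%) and are no result about the list. ERP2, a p24 cargo receptor protein, rose by 1.23 and 1.53 (limma adjusted p = 0.000251 and 2.31e-05). ERP1 and ERV25, of the same family, rose by 0.60 each under carbon limitation (0.0276 and 0.00494) and by 0.84 and 0.44 under nitrogen limitation (0.0024 and 0.0213). RER1, a retrieval receptor, rose by 0.83 under nitrogen limitation (0.00275). SEC27, a coat subunit, fell by 0.62 and 0.53 (0.0344 and 0.0498), calls lost in 7 and 17 of 22 alternatives. The call of ERP1 under carbon limitation was lost without replicate 1 or 3 at either temperature, and that of ERV25 under nitrogen limitation in 6 alternatives, 4 of them leaving out 1 array. The number that rose ranged from 2 to 6 and from 3 to 11.

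Cytosolic chaperones, which serve proteins outside the secretory pathway, were followed beside them. SSB1 and SSB2 were listed but not measured. Of 18 measured, 8 fell, 2 rose and 8 did not pass under carbon limitation (median -0.54), where 12.6% of all genes fell. Under nitrogen limitation 10 fell, 1 rose and 7 did not pass (median -0.75), where 22.3% of all genes fell. SSA3, a stress-induced cytosolic Hsp70 of the same family as KAR2, fell by 1.84 and 1.59 (limma adjusted p = 6.02e-05 and 0.000154), and SSA4, another, by 1.54 under nitrogen limitation (1.5e-05). AHA1, which activates Hsp90, fell by 1.68 and 1.39 (2.64e-06 and 1.47e-05), the cyclophilin CPR6 by 1.40 and 1.24 (2.36e-05 and 4.77e-05) and the disaggregase HSP104 by 0.62 and 1.44 (0.0164 and 1.69e-05). The exceptions, named after their values were seen, were SBA1, an Hsp90 cochaperone, which rose by 0.89 and 0.68 (0.000973 and 0.00418), and SSA2, a cytosolic Hsp70 of unstressed cells, which rose by 0.69 under carbon limitation (0.0168). The call of HSP104 under carbon limitation was lost without replicate 2 at 12 °C or replicate 1 or 2 at 30 °C, and the number that rose there went to 1 without replicate 2 at 12 °C or replicate 3 at 30 °C. The difference between the 2 groups of genes was not tested as such.

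**Figure D4:**
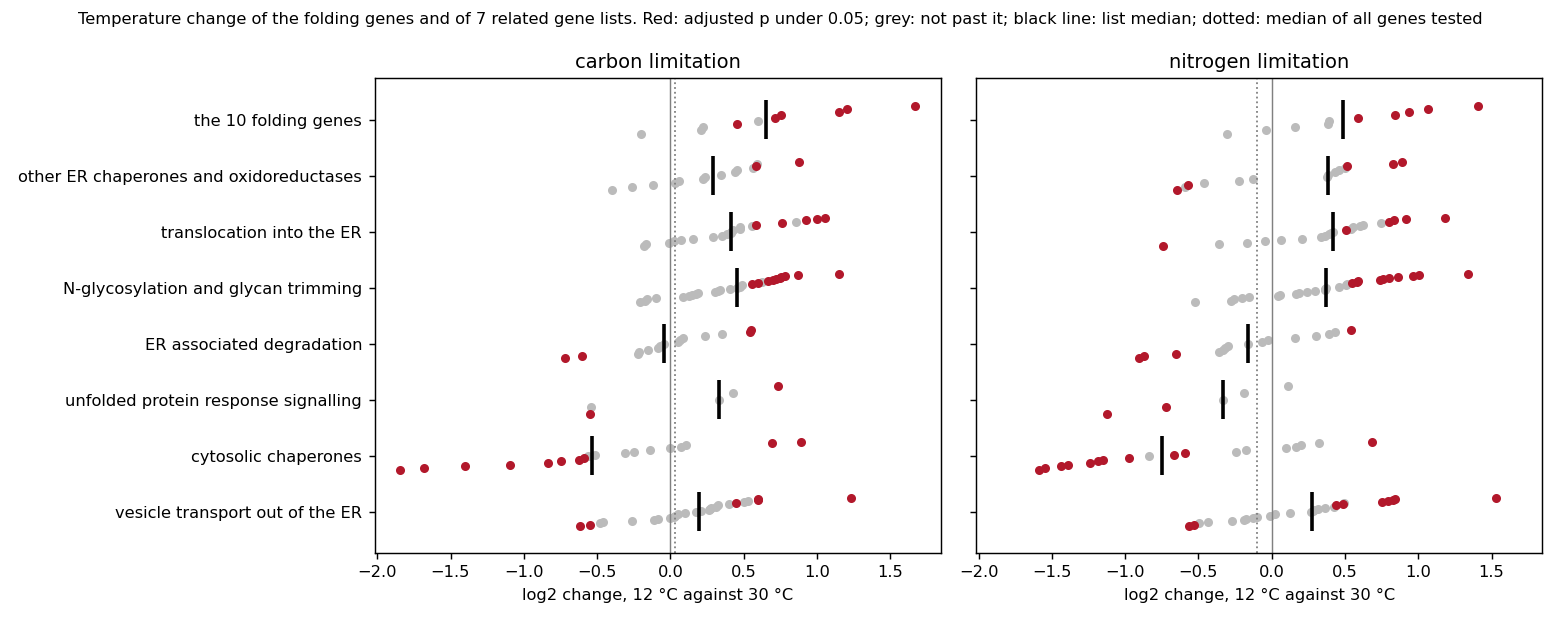
Log2 change from 30 °C to 12 °C of every measured gene in the 10 folding genes and in 7 related lists, with carbon limitation at left and nitrogen limitation at right (red, adjusted p under 0.05; grey, not past it; black line, median of the list; dotted line, median of all genes tested). The medians of the folding genes are 0.65 and 0.49, and those of the cytosolic chaperones -0.54 and -0.75.

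Among the tested genes outside the 10, those whose log2 signal followed KAR2 most closely over the 12 arrays were FOL3, a folate synthesis enzyme (Pearson r = 0.964), the ribosomal protein gene RPL16B (0.950), SVL3 (0.949) and EXG1, a glucanase of the cell wall (0.940). Next were LCL2 (0.933), the sterol isomerase gene ERG2 (0.931), PMT2 (0.926), which encodes a protein O-mannosyltransferase of the endoplasmic reticulum, and ADO1, an adenosine kinase (0.923). A gene known only by a systematic name stood between ERG2 and PMT2. SVL3 rose by 1.27 and 1.24 (limma adjusted p = 0.000135 and 0.000112), and PMT2 rose by 0.92 and 0.68 (0.00056 and 0.00339). Among the 10 folding genes the correlation with KAR2 was highest for LHS1, at 0.741, and LHS1 stood at place 302 among all genes in that order. With quantile normalization 4 of the 8 named genes stayed among the top 8.

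The genes most like the mean of the 10, each gene centred on its own mean, were ARE2, an acyltransferase of sterols in the endoplasmic reticulum (r = 0.990), the mitochondrial carrier gene YMC2 (0.976), FOL1 (0.972) and MET7 (0.972), both of folate metabolism, and ENV9 (0.971). They were followed by MTR4, an RNA helicase of the nuclear exosome pathway (0.970), SGF11, of a deubiquitinating module of the SAGA complex (0.969), and LYS1, the last enzyme of lysine synthesis (0.968). ARE2 averaged 7.2 and 5.57 units at 30 °C, under the floor, and its change under nitrogen limitation was lost with a floor of 50 (adjusted p = 0.252). Between 4 and 8 of these stayed among the top 8 over the alternatives that could change the correlation. The correlations are over 12 arrays in 4 groups.

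The chromosomal neighbours of the 10 genes were also examined, in the order of the R64 gene table. Of 18 neighbouring genes outside the 10, 5 rose and 3 fell under carbon limitation, and 2 rose and 8 fell under nitrogen limitation. Of all genes tested 13.1% rose and 12.6% fell in the first comparison, and 15.9% rose and 22.3% fell in the second. The 2 that rose under nitrogen limitation flank KAR2. They are TAD2, an RNA-editing subunit for tRNA, and HCA4, an RNA helicase of ribosome assembly, and they rose by 1.45 and 0.89 under carbon limitation and by 1.35 and 1.14 under nitrogen limitation, more than KAR2 did in each comparison. These neighbours were examined after the values of the 10 genes were known.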

How the data were processed

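The deposited table holds linear intensity values for 9335 probe sets on 12 single-channel Affymetrix arrays. The authors made them with GCOS, per the submitters' processing notes, whose version and signal algorithm were not given in the sources used here. Of the probe sets, 6504 carried 1 gene in the platform annotation, 328 several and 2503 were not listed, and symbols were updated through the R64 gene table. Signals were raised to at least 12 and put on the log2 scale without further scaling. Each gene was read on its probe set with the highest mean, and a gene had to exceed the floor on at least 3 arrays. Group means were fitted with limma 3.58.1 (R 4.3.3; lmFit, eBayes with an intensity trend) over all 12 arrays, with Benjamini-Hochberg adjustment over 5400 genes and a threshold of 0.05. Changes are on the log2 scale with standard errors and understate those of dim genes. The fit was tested on simulated data in which each gene had the same spread in every group, so unequal spread was not covered. The number of arrays limits the precision, and 3 arrays against 3 cannot give an exact permutation p below 0.1. The members and gene lists were chosen with earlier results of these data known. Named were all members, up to 3 genes per list and temperature comparison with the largest called change, and the 8 genes most like KAR2 and most like the members' mean.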

Additional observations from a re-analysis of the deposited data

How the results depend on the processing

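Over 22 alternatives (floors of 50 and 1, quantile and median scaling, no filter on dim genes, other uses of probe sets, no intensity trend, fits of the compared groups alone, a replicate block, and each array left out), 5 to 7 of the 10 genes were called under carbon limitation and 4 to 6 under nitrogen limitation. KAR2, LHS1, EUG1 and FPR2 kept both calls in all of them. Of 1095 values of the 10 genes, 41 changed sign, all without a call. At a floor of 50 JEM1 was not tested. For nitrogen against carbon limitation, quantile normalization called 2 genes at 30 °C in place of 1, leaving out 1 array called 0 to 1 at 30 °C and 0 to 1 at 12 °C, and the cause was not tested. Over all genes, leaving out 1 array gave 921 to 1690 calls for temperature under carbon limitation (1386 with all), 246 to 480 for the interaction (402) and 128 to 394 between limitations at 12 °C (306). A fit of those 2 groups alone gave 4, whereas the like fit at 30 °C gave 2044 in place of 1452. Both had fewer arrays behind the spread, and what moved these counts was not tested. The titles share replicate numbers, but 3 of 18 same-numbered pairs deviated together (r over 0.1) and 2 of 12 arrays matched their own number best, so the numbers were not taken as pairing. With the replicate block 5 genes were called under carbon limitation in place of 6 and 1304 of all genes in place of 1386, and the PDI1 call was lost.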
